A study of Homo sapiens with 60 samples.

Results

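HT29 cells, an established human colorectal adenocarcinoma line of epithelial origin, were compared between 24 h of exposure to a water extract of Aconiti Lateralis Radix Preparata, the processed lateral root of aconite, at its high dose of 500 µg/mL, and 24 h of exposure to the DMSO vehicle. The comparison held 3 aconite libraries and 3 vehicle libraries, 6 of the 60 samples of the series, and all genes of the deposited count table. The labels give the vehicle as 0.1% DMSO and the series' design text as 2%, and which was used was not settled. The design text also says that the top dose was lowered for extracts whose inhibitory concentration lay below 500 µg/mL, and the labels give 500 µg/mL for this extract. Libraries of the same extract at 100 µg/mL (medium) and 20 µg/mL (low), and of a water extract of Bupleuri Radix (bupleurum root) at 500 µg/mL, 3 of each, also after 24 h, were used as further references. Per the labels' protocols the RNA passed an integrity cutoff and was made into directional libraries. Since no label states that a group's libraries came from separate cultures, p-values speak only of how these libraries varied, which may be technical variation.

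The 6 libraries held 15.94 to 33.87 M counts (M for 1000000), within the series' range of 10.35 to 40.05 M. Library 2 of aconite high was the shallowest of the 6 and stood apart from the other two: its root mean square deviation from its group mean was 0.426 on the log2 scale, against 0.276 and 0.239 for libraries 1 and 3, and its genes deviated downwards with exon length (Spearman's rho across genes -0.35, against 0.30 and 0.31). Counts of called genes against vehicle are therefore given with and without aconite high 2. Vehicle 1 also deviated downwards with exon length (rho -0.41, against 0.26 and 0.34 for vehicle 2 and 3). These deviations are from the group mean, so the libraries of a group cannot all deviate in the same direction. The sample codes begin with B1 for vehicle and with 6 for aconite and bupleurum, and RN7SL2, a cytosolic RNA of the signal recognition particle, differed with that code: it was at 4.94 to 9.32 CPM (counts per 1 M of scaled library size) in vehicle and at 40.8 to 237 in every aconite and bupleurum library used here. The titles of the vehicle, aconite and bupleurum samples all carry the label BatchB. In the comparison with vehicle, extract and code cannot be told apart, and the comparisons with bupleurum high and with aconite low stay within code 6. Of the fixed markers, the 10 of colon epithelium summed to 10809 to 12716 CPM in vehicle and 11063 to 12854 in aconite high, while the 4 erythroid markers summed to at most 0.113 CPM and the 4 neural markers to at most 0.884. The 5 immune markers reported summed to 11.8 to 13.3 CPM in vehicle and 15.4 to 18.3 in aconite high, and 2 of them (PTPRC and CD3E) stayed under 1 CPM in all 6 libraries. The 6 fibroblast markers (COL1A2 at 0) summed to 1.58 to 2.34 CPM in vehicle and 2.51 to 2.99 in aconite high, and the 6 endothelial markers (KDR and ERG at 0) to 2.18 to 2.90 and 2.46 to 3.08. Their part in the results was not tested.

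Processed aconite root is a warming drug of East Asian medicine whose raw form carries diester alkaloids, such as aconitine, that hold voltage-gated sodium channels open, and whose processing hydrolyses much of them. The aryl hydrocarbon receptor (AhR) is a cytosolic factor that, on binding planar aromatic ligands, enters the nucleus and induces CYP1 enzymes. The integrated stress response is a cascade in which phosphorylation of eIF2 lowers translation in general while raising the factor ATF4, which induces genes of amino acid synthesis, transport and tRNA charging. NRF2 induces antioxidant enzymes when its inhibitor KEAP1 is modified, and NF-kB induces chemokines that draw neutrophils and lymphocytes to the gut wall.

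The promoters of 3 genes that come up again below are shown. These genes belong to the integrated stress response and NRF2 lists, which held the most members that changed with all 6 libraries. Among the members the naming rule took, these 3 carry the searched motif within 250 bases before the RefSeq start (GRCh38.p14). Capitals mark the match, on either strand, to TGATGNAAN, a C/EBP-ATF response element bound by ATF4 with C/EBP partners (CHAC1, ATF3), or to TGACNNNGC, the core of the antioxidant response element bound by NRF2 (ME1). CHAC1 is shown from chr15:40953221-40953470, plus strand, ATF3 from chr1:212565157-212565406, plus strand, and ME1 from chr6:83431052-83431301, minus strand.
CHAC1: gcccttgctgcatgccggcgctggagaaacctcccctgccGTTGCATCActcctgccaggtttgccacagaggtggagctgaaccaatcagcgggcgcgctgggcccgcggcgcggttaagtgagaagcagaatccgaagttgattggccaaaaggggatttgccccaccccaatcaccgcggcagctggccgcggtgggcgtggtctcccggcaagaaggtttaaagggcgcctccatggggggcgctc
ATF3: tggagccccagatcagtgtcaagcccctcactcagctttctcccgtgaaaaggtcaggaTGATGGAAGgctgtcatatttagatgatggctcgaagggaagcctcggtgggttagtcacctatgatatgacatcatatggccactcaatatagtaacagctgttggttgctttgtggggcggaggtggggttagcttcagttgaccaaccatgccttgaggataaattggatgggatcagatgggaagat
ME1: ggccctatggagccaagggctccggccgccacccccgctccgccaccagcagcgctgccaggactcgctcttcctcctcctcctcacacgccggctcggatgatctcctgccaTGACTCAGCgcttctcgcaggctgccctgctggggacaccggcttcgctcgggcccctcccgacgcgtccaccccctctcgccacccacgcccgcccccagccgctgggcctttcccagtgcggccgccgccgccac
The RefSeq start used for CHAC1 lies inside the gene's GENCODE span given below. Each gene was searched at a single start, and promoters at other starts, of ATF3 for example, were not searched. The matches begin 210 bases (CHAC1), 191 bases (ATF3) and 137 bases (ME1) before the start. In the windows of 300 bases, which run 50 bases past the start, TGATGNAAN was found in 3 of the 19 integrated stress response genes with a promoter sequence, in 6 of 16 cytosolic tRNA synthetase genes and in 3.67% of all 27305 promoters. TGACNNNGC was found in 6 of 20 NRF2 genes and in 13.6% of all promoters, GCGTG, the core letters bound by the AhR, in 7 of 8 AhR genes and 36.3% of all promoters, and the loose NF-kB motif of GGG, any 5 bases and CC in 21 of 21 NF-kB genes and 58% of all. A match is a description of letters and not of binding.

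Against vehicle, 110 genes were higher and 75 lower in aconite high, of 14902 tested (edgeR's quasi-likelihood F-test at a Benjamini-Hochberg false discovery rate of 0.05). That is 1.24% of the genes tested, 0.738% higher and 0.503% lower. Of these, 55 rose and 39 fell by at least 1 on the log2 scale. Without aconite high 2, 907 genes were higher and 777 lower of 15219 tested, which is 11.1% in all, 5.96% higher and 5.11% lower. All 110 higher and all 75 lower genes were also past the threshold without that library, in the same direction, and they made up 12.1% and 9.65% of the longer lists. The estimated variation between replicates (biological coefficient of variation) was 15.2% with and 7.0% without it. Leaving out one of the other libraries instead shortened the lists: 16 higher and 5 lower genes were left without vehicle 1, 15 and 4 without vehicle 2, 17 and 5 without vehicle 3, 36 and 13 without aconite high 1, and 32 and 10 without aconite high 3. Past the threshold under every one of the 6 omissions were 14 higher and 4 lower genes, among them CYP1A1, CYP1B1, ALDH1A3, TIPARP, ALDH3A1, MT-RNR1, MT-RNR2, CXCL1, CHAC1, DDIT4, PSAT1, PI3 and, lower, SLC14A1. Of the 58 genes named by rule that passed the test with all 6 libraries, these 13 did so under every omission, and each of the others missed the threshold without at least 1 of the 6 libraries while passing it without aconite high 2.

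**Figure D1:**
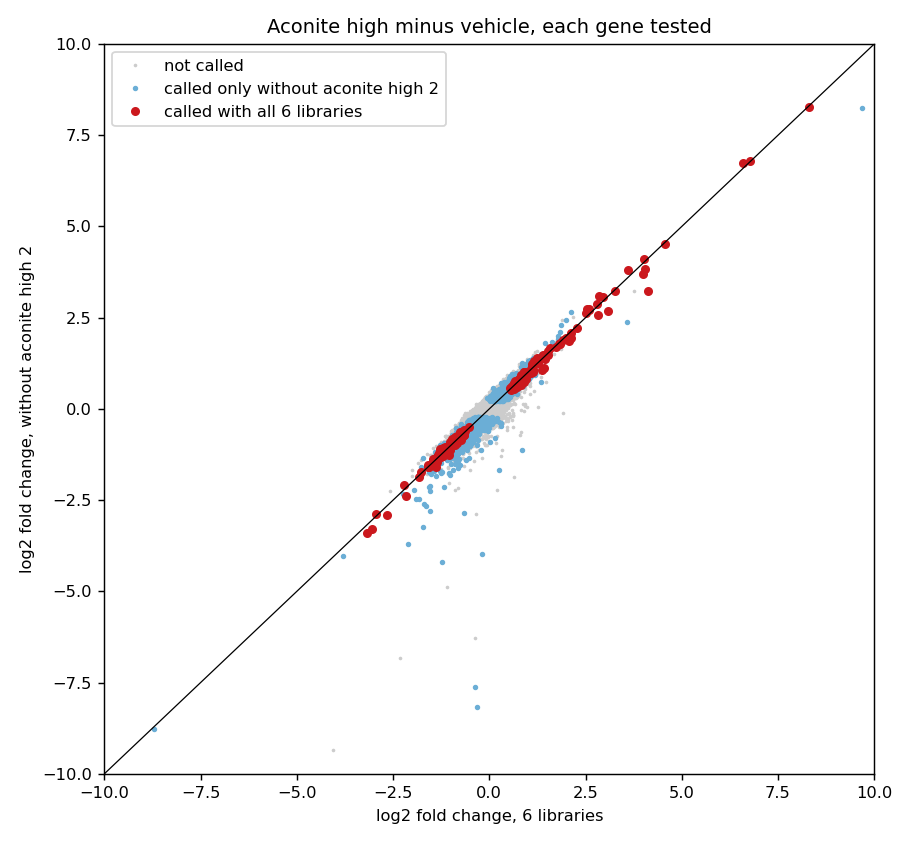
Log2 fold change of aconite high minus vehicle for each gene tested, with all 6 libraries (x axis) and without aconite high 2 (y axis). The 185 genes called with all 6 libraries (red) have the same sign on both axes, and blue points are genes called only when that library is left out.

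CYP1A1, a target of the aryl hydrocarbon receptor, showed the largest rise among the named genes. Of 12 listed genes of that pathway 9 were tested, 4 rose and none fell, 7 rose without aconite high 2, and 4 rose when any other library was left out. The list's median log2 fold change was 0.90 (1.12 without aconite high 2), against 0.005 (-0.007) over all genes tested. CYP1A1, the cytochrome P450 that oxidises polycyclic aromatics and the classic AhR target (chromosome 15, 74719542 to 74725610, minus strand, GRCh38), was at 0.113, 0.406 and 0.362 CPM in the 3 vehicle libraries and at 95.1, 105 and 104 CPM in the 3 aconite high libraries. The groups lay far apart and the 3 aconite libraries close together. The difference was 314-fold, or 8.29 ± 0.24 on the log2 scale (standard error, 3 against 3 libraries, adjusted p = 1.45e-05), and 8.26 without aconite high 2. CYP1B1, a related monooxygenase, was at 45.1, 48.9 and 53.4 CPM in vehicle and 359, 308 and 370.0 in aconite high, a log2 difference of 2.81 ± 0.12 (adjusted p = 0.000127).

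ALDH1A3, which makes retinoic acid, was at 18.1, 19.5 and 19.8 CPM in vehicle and 71.2, 81.2 and 76 in aconite high (log2 difference 1.99 ± 0.10, adjusted p = 0.000246). TIPARP, the ADP-ribosyltransferase that limits the receptor's own signalling, was at 62.9, 66 and 70.8 CPM in vehicle and 179.6, 198 and 195 in aconite high (log2 difference 1.51 ± 0.10, adjusted p = 0.000793). In neither gene did the groups overlap. AHRR, the receptor's repressor, did not pass the test: it was at 3.39, 5.49 and 4.71 CPM in vehicle and 5.86, 3.42 and 5.91 in aconite high, and the groups overlapped. The conjugating enzyme UGT1A6, whose exons are in part shared with other UGT1A transcripts, had a log2 difference of 0.81 ± 0.15 (adjusted p = 0.0519, and 0.00203 without aconite high 2).

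CYP1A1 was at 6.03, 2.25 and 3.42 CPM in the low and 87.9, 93.5 and 97.5 CPM in the medium dose libraries, so that the medium and high dose libraries overlapped. CYP1B1 was at 160.2, 104 and 109 CPM (low) and 385, 414 and 397 CPM (medium), and ALDH1A3 at 44.8, 34 and 38 CPM (low) and 104, 102 and 103 CPM (medium). For both of these genes each medium library was above each high library. All 4 genes that rose against vehicle were also higher in aconite high than in bupleurum high (log2 difference 4.72 for CYP1A1, 1.80 for CYP1B1, 1.43 for ALDH1A3 and 0.91 for TIPARP, adjusted p = 5.77e-06, 0.000988, 0.00107 and 0.00659). Bupleurum high itself held 3.9, 3.74 and 3.92 CPM of CYP1A1, above every vehicle library.

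**Figure D2:**
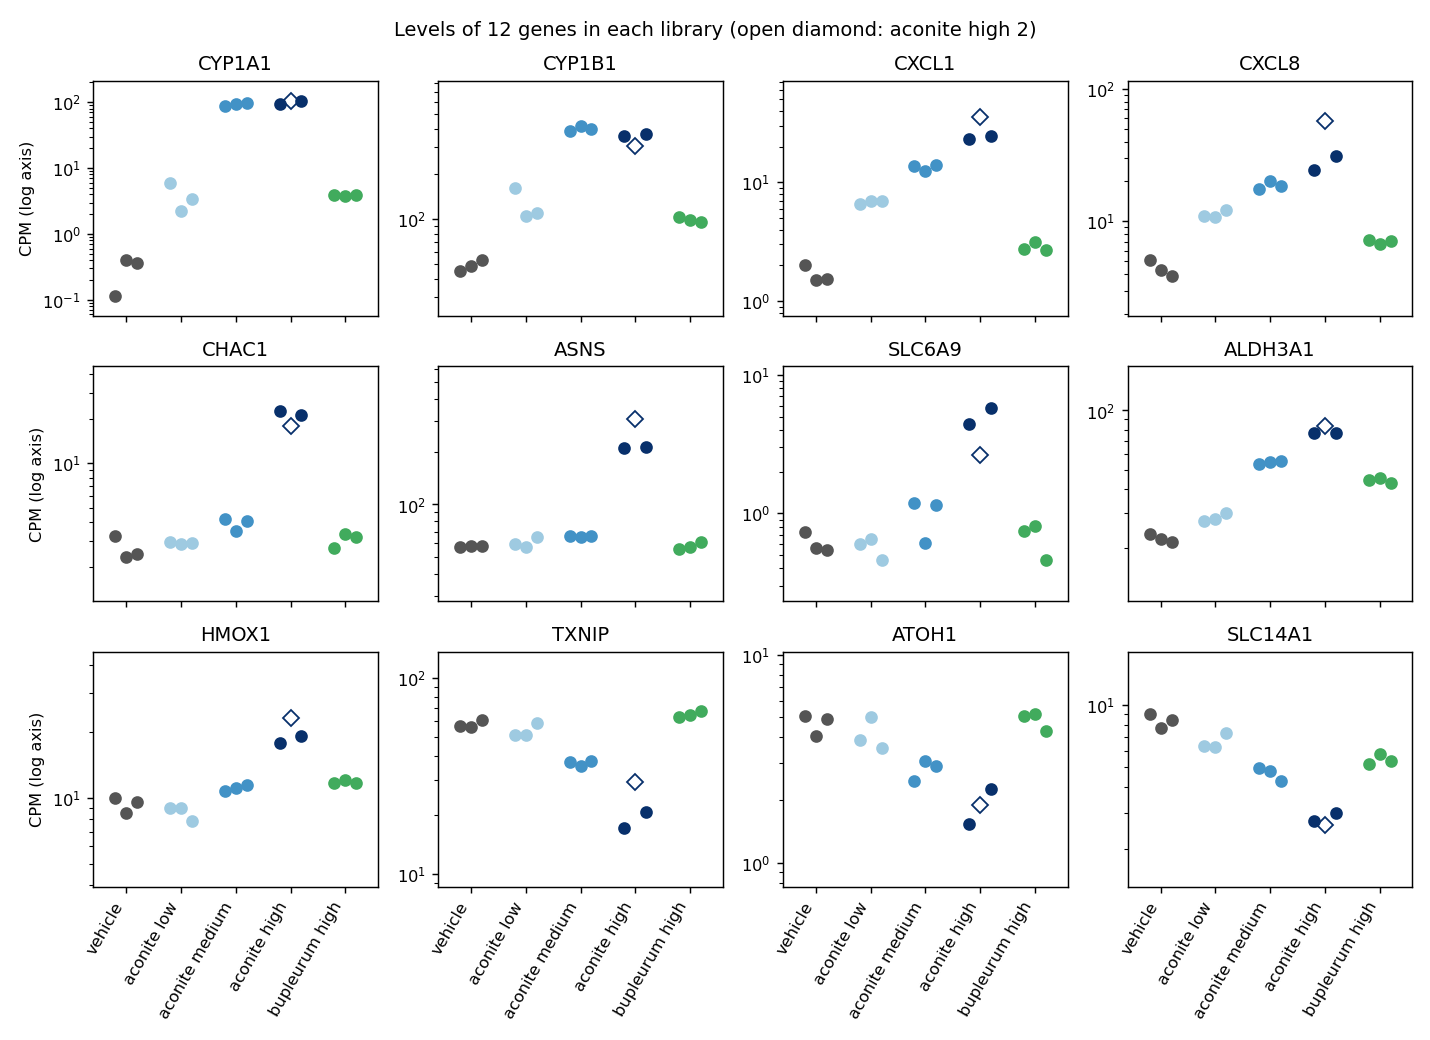
CPM on log axes of 12 genes in each library of vehicle, the 3 doses of aconite and bupleurum high, with aconite high 2 as an open diamond. CYP1A1 and CYP1B1 are close to or above the high dose level in the medium dose libraries, while CHAC1, ASNS and SLC6A9 stand apart in the high dose libraries, and TXNIP, ATOH1 and SLC14A1 are lowest there.

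In the NF-kB list the complement gene C3 and several chemokines rose. Of 35 listed genes 26 were tested, 9 rose and none fell, with 17 higher without aconite high 2 and 1 to 6 higher when one of the other 5 libraries was left out. The list's median was 0.42 on the log2 scale (0.53 without aconite high 2). CXCL1, a neutrophil chemokine (chromosome 4, 73869393 to 73871242, plus strand), was at 2.03, 1.5 and 1.54 CPM in vehicle and 22.9, 35.6 and 24.6 CPM in aconite high, 16.4-fold more and 4.04 ± 0.23 on the log2 scale (adjusted p = 0.00038). CCL20, which draws dendritic cells and lymphocytes carrying CCR6, was at 0.226, 0.374 and 0.498 CPM in vehicle and 4.6, 8.74 and 5.24 CPM in aconite high (log2 difference 4.00 ± 0.36, adjusted p = 0.00457). CXCL8, interleukin 8, was at 5.08, 4.31 and 3.85 CPM in vehicle and 24.6, 57.2 and 31 CPM in aconite high (log2 difference 3.08 ± 0.33, adjusted p = 0.0096). For these 3 chemokines every aconite library was above every vehicle library, which the naming rule required, and aconite high 2 was the highest. Without it the log2 differences were 3.84, 3.70 and 2.67.

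C3, the central complement protein, had 44, 20 and 63 counts in the 3 aconite libraries and 1, 0 and 0 in the vehicle libraries. Set against total counts the ratio was 124, with a 95% interval from 21.9 to 4950 that covers counting error only (exact binomial). BIRC3, an inhibitor of apoptosis that is itself induced by NF-kB, was at 5.14, 5.21 and 5.07 CPM in vehicle and 10.00, 11.2 and 11.7 CPM in aconite high (log2 difference 1.09 ± 0.11, adjusted p = 0.0096). The chemokines CXCL2 and CXCL3, the adhesion molecule ICAM1 and the cytokine IL32 also rose, by 2.51 ± 0.30, 2.12 ± 0.28, 1.26 ± 0.15 and 1.92 ± 0.30 (adjusted p = 0.014, 0.0183, 0.014 and 0.0331). With all 6 libraries subunits of NF-kB and its inhibitor did not pass the test. The subunits RELA, NFKB1, NFKB2 and RELB had log2 differences of 0.01, -0.10, 0.48 and 0.43 (adjusted p = 0.993, 0.758, 0.107 and 0.3), and NFKBIA, which holds NF-kB in the cytosol, 0.38 (adjusted p = 0.21). Without aconite high 2, NFKB2, RELB and NFKBIA passed it, at 0.54, 0.53 and 0.29 (adjusted p = 0.00703, 0.0315 and 0.0408). PI3, the elastase inhibitor elafin, is in no list here and rose from 4.69, 3.43 and 3.58 CPM to 14.7, 18.8 and 17.5 CPM (log2 difference 2.13 ± 0.16, adjusted p = 0.00195). CXCL1 levels were ordered by dose: they stood at 6.57, 6.98 and 7.03 CPM at the low and 13.8, 12.3 and 13.9 CPM at the medium dose, with no overlap between neighbouring doses. The NF-kB list's median log2 difference from the vehicle mean was 0.342, 0.292 and 0.304 in the low dose libraries. It was 0.409, 0.317 and 0.484 at the medium and 0.501, 0.339 and 0.532 at the high dose, so low and high overlapped. Against bupleurum high 8 of 26 members were higher (19 without aconite high 2). Against aconite low 3 of 27 were higher (12 of 28 without it), and none was lower in either comparison.

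With all 6 libraries the integrated stress response list had more members past the threshold than any other list. Without aconite high 2 the NRF2 list had the most, with 25 higher. Of 24 listed genes 21 were tested, 12 rose and none fell. Without aconite high 2, 18 rose and 1 fell, and 2 to 5 rose when one of the other 5 libraries was left out. The median log2 fold change was 0.83 (0.77 without aconite high 2). CHAC1, which degrades glutathione (chromosome 15, 40952962 to 40956519, plus strand) and whose promoter is shown above, was at 3.22, 2.34 and 2.45 CPM in vehicle and 22.6, 18 and 21.4 CPM in aconite high, 7.82-fold more (log2 difference 2.97 ± 0.16, adjusted p = 0.000373). ADM2, a peptide hormone of the calcitonin family, was at 1.47, 1.5 and 1.9 CPM in vehicle and 10.2, 6.05 and 11.5 CPM in aconite high (log2 difference 2.53 ± 0.27, adjusted p = 0.0096). DDIT4, an inhibitor of mTORC1, was at 21, 19.6 and 20.4 CPM in vehicle and 68.2, 78.4 and 70.8 CPM in aconite high (log2 difference 1.83 ± 0.10, adjusted p = 0.000325). All 3 were separated from vehicle without overlap, which the naming rule required of CHAC1 and ADM2. Among the aconite libraries, ADM2 was lowest in library 2.

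The other called members of the list rose by less than CHAC1, ADM2 and DDIT4. TRIB3, a pseudokinase that restrains ATF4, was at 45.5, 43.8 and 42.6 CPM in vehicle and 96.3, 89.6 and 92.6 CPM in aconite high (log2 difference 1.07 ± 0.09, adjusted p = 0.00258). ATF3, a repressor induced by ATF4 whose promoter is also shown above, was at 1.86, 2.56 and 2.9 CPM and 6.42, 7.36 and 6.58 CPM (log2 difference 1.45 ± 0.18, adjusted p = 0.0156). SESN2, the leucine-binding sestrin, was at 11.9, 12.3 and 13.9 CPM and 29.7, 22 and 30.1 CPM (log2 difference 1.11 ± 0.15, adjusted p = 0.0188). None of these overlapped with vehicle. GDF15, a secreted stress hormone, rose by 0.68 ± 0.09, and SLC3A2, the heavy chain shared by several amino acid exchangers, by 0.83 ± 0.13 (adjusted p = 0.0195 and 0.0364). VLDLR, JDP2, XPOT and VEGFA completed the 12, at 1.12, 1.10, 0.59 and 0.81. ATF4 itself and DDIT3 (CHOP) had log2 differences of 0.58 and 0.75 that passed the test against vehicle without aconite high 2 (adjusted p = 0.00483 and 0.0134) and not with it (0.0681 and 0.0692). Against bupleurum high both passed it with all libraries, at 0.63 and 0.99 (adjusted p = 0.0469 and 0.0288). Their values against aconite low, the other comparison within code 6, are not given here. Of the list of chaperones and folding enzymes of the endoplasmic reticulum, 24 were tested and edgeR called none with all 6 libraries. By edgeR 2 were higher and 1 lower at an unadjusted p under 0.05. Of the 24, DESeq2 called 1 and limma with weights 9, and edgeR called 3 higher and 1 lower without aconite high 2. Of all 14902 genes tested, 1831 had an unadjusted p under 0.05 by edgeR, and DESeq2 and limma with weights called 525 and 4656. The chaperone list's median was 0.09 (0.02 without aconite high 2).

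Enzymes that make serine, asparagine and one-carbon units, which ATF4 is known to induce, formed a list of 20. Of these 18 were tested, 5 rose and none fell (10 without aconite high 2, and 1 or 2 when one of the other libraries was left out). ASNS, asparagine synthetase, was at 57, 57.7 and 58.2 CPM in vehicle and 211, 309 and 212 CPM in aconite high (log2 difference 2.07 ± 0.16, adjusted p = 0.00231, and 1.87 without aconite high 2). PSAT1, the second enzyme of serine synthesis, was at 102, 99.9 and 107 CPM in vehicle and 262, 310.3 and 270.3 CPM in aconite high (log2 difference 1.44 ± 0.10, adjusted p = 0.00157). In both genes the vehicle libraries lay within a narrow range and aconite high 2 was the highest. SHMT2, a mitochondrial enzyme that splits serine, and GPT2, an alanine transaminase, rose by 0.58 ± 0.09 and 0.66 ± 0.11 on the log2 scale (adjusted p = 0.0366 and 0.0376). PHGDH, the first enzyme of serine synthesis, rose by 0.96 ± 0.16 (adjusted p = 0.0391). Some genes stand in more than one list, ATF3, SESN2, VEGFA, SLC7A11, SLC3A2, ME1, HMOX1 and BIRC3 among them.

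Among 25 listed amino acid transporters of the plasma membrane 24 were tested, 5 rose and 1 fell (10 and 2 without aconite high 2). SLC6A9, the glycine transporter GLYT1, was at 0.734, 0.562 and 0.544 CPM in vehicle and 4.42, 2.62 and 5.75 CPM in aconite high (log2 difference 2.84 ± 0.34, adjusted p = 0.0139). SLC7A11, the cystine importer that both ATF4 and NRF2 induce, was at 133, 146 and 149 CPM and 349, 277 and 363 CPM (log2 difference 1.20 ± 0.13, adjusted p = 0.0096). SLC1A4, a carrier of neutral amino acids, was at 9.66, 10.2 and 10.0 CPM and 24, 17 and 25.5 CPM (log2 difference 1.15 ± 0.16, adjusted p = 0.0218). In these 3 transporters aconite high 2 was the lowest of its group and still above every vehicle library. For SLC6A9 the naming rule required that the groups not overlap. SLC3A2 and SLC38A2, a carrier of small neutral amino acids, made up the 5, the latter at 0.66 ± 0.10 (adjusted p = 0.0247). SLC3A1, the heavy subunit of the apical cystine and dibasic amino acid exchanger, fell from 3.28, 3.24 and 3.99 CPM to 1.35, 1.24 and 1.02 CPM (log2 difference -1.56 ± 0.20, adjusted p = 0.0167). With another library than aconite high 2 left out, 0 to 2 transporters rose and none fell.

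Of the cytosolic aminoacyl-tRNA synthetases all 20 were tested, 7 rose and none fell (13 without aconite high 2), and all 20 fold changes were above 0 with a median of 0.47. WARS1, AARS1, GARS1 and CARS1, which charge the tRNAs of tryptophan, alanine, glycine and cysteine, rose by 0.71 ± 0.08, 0.71 ± 0.09, 0.79 ± 0.10 and 0.63 ± 0.08 (adjusted p = 0.0133, 0.0145, 0.0171 and 0.0188). AARS1, for example, was at 129, 132 and 137 CPM in vehicle and 219, 222 and 211 CPM in aconite high. None of the 20 passed the threshold when any library other than aconite high 2 was left out.

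At the lower doses of aconite these genes lay closer to vehicle than to the high dose. CHAC1 was at 2.95, 2.87 and 2.91 CPM at the low and 4.23, 3.47 and 4.06 CPM at the medium dose, DDIT4 at 19.5, 19.5 and 19.7 and 20.4, 19.4 and 20.7 CPM, and ASNS at 59.1, 56.9 and 64.9 and 65.9, 65.3 and 65.7 CPM. The median of the integrated stress response list, as the log2 difference from the vehicle mean, was 0.736, 0.935 and 0.842 in the 3 high dose libraries and 0.034 to 0.140 in the medium ones. Against bupleurum high 11 of 21 members were higher and none lower, and against aconite low 11 were higher and 1 lower of 21. The counts without aconite high 2 were 19 and 1 of 22 against bupleurum high and 17 and 1 of 21 against aconite low. CHAC1 differed by 2.75 from bupleurum high and by 2.83 from aconite low on the log2 scale (adjusted p = 0.000612 and 0.000353).

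**Figure D3:**
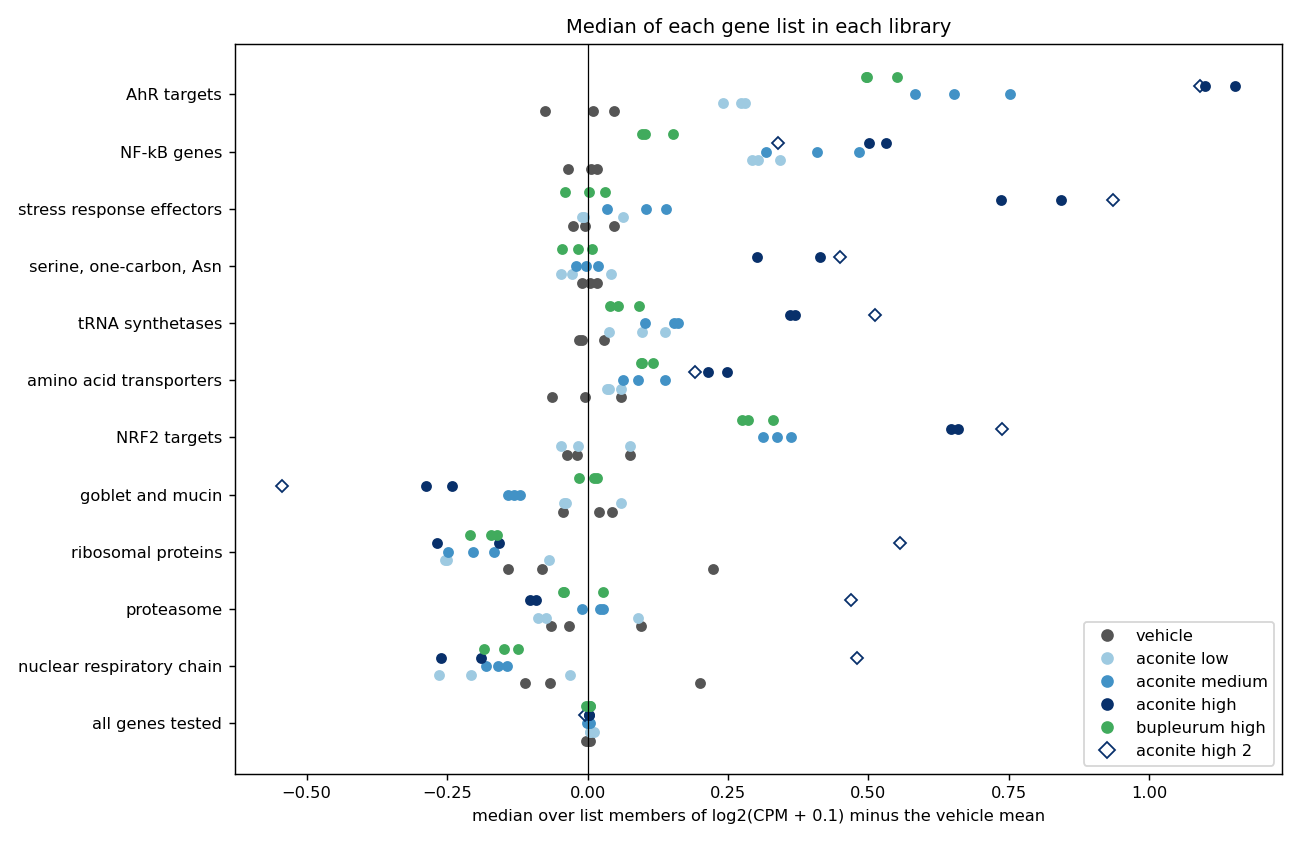
Median over the tested members of 11 gene lists, and over all genes tested, of log2(CPM + 0.1) minus the vehicle mean (x axis) in each library of 5 groups. In the first 7 lists the 3 aconite high libraries lie above every vehicle library, and for ribosomal proteins, proteasome and nuclear respiratory chain aconite high 2 (open diamond) lies above all the vehicle libraries and aconite high 1 and 3 do not.

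The 2 ribosomal RNAs of the mitochondrial genome rose, and 5 of its 13 messenger RNAs fell. MT-RNR1, the 12S ribosomal RNA (chromosome M, 648 to 1601, plus strand of the mitochondrial genome), was at 1423, 1263 and 1288 CPM in vehicle and 31991, 32699 and 29361 CPM in aconite high, 23.6-fold more (log2 difference 4.56 ± 0.13, adjusted p = 1.45e-05). MT-RNR2, the 16S ribosomal RNA, was at 11148, 10047 and 10513 CPM in vehicle and 106690, 107850 and 91959 CPM in aconite high (log2 difference 3.27 ± 0.14, adjusted p = 0.000127). Together they took 1.14% to 1.22% of all counts in vehicle and 12.5%, 12.1% and 11.3% in aconite high. The 13 messenger RNAs took 7.60% to 8.91% of counts in vehicle and 4.07%, 3.74% and 2.76% in aconite high.

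All 13 messenger RNAs had fold changes below 0, and 5 of them passed the test (10 of 13 without aconite high 2, and 0 to 3 when another library was left out). MT-ND4, a subunit of complex I, was at 11367, 9339 and 11047 CPM in vehicle and 4441, 3509.5 and 2554 CPM in aconite high (log2 difference -1.60 ± 0.21, adjusted p = 0.0183). MT-CO2 and MT-CO3, subunits of cytochrome c oxidase, had log2 differences of -1.35 ± 0.23 and -1.24 ± 0.16 (adjusted p = 0.0398 and 0.017). MT-ND3, of complex I, and MT-ATP6, of the ATP synthase, had differences of -1.31 ± 0.21 and -1.29 ± 0.19 (adjusted p = 0.0363 and 0.0247). In these 5 genes no aconite library reached a vehicle library, which the naming rule required of all but MT-CO3. MT-ND6, the messenger RNA of the light strand, was at 703, 391 and 326 CPM in vehicle and 298, 489 and 177 CPM in aconite high, where the groups overlapped (adjusted p = 0.658). MT-ATP8 and MT-ATP6, and MT-ND4L and MT-ND4, overlap on the genome, so their counts are not independent, and copies of mitochondrial sequence in the nucleus could share reads with all of these genes.

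At the other doses MT-RNR1 was at 3429, 3472 and 2996 CPM (medium) and 1179, 1211 and 1035 CPM (low), so that every medium library lay above vehicle and every low library below it. MT-RNR1 was higher in aconite high than in bupleurum high by 4.59 and than in aconite low by 4.78 on the log2 scale (adjusted p = 2.70e-05 and 4.10e-05). The messenger RNA MT-CO3 differed by -1.33 and -1.21 in the same 2 comparisons (adjusted p = 0.0145 and 0.0389), whereas MT-ND4 passed the test against bupleurum high (adjusted p = 0.0366) and not against aconite low (0.0875). Genes of the respiratory chain that are encoded in the nucleus did not pass the test in either direction among 54 tested, and neither did the 57 genes of the mitochondrial ribosome, by edgeR or DESeq2. None of either list had an unadjusted p under 0.05 by edgeR, and limma with library quality weights called 14 and 10 lower and 0 and 2 higher. Of all 14902 genes tested, limma with weights called 2410 lower and 2246 higher. The medians of the 2 lists were 0.05 and 0.09 with all libraries and -0.23 and -0.12 without aconite high 2. By edgeR without that library 4 and 3 members were lower, and 5.11% of all genes tested were lower.

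**Figure D4:**
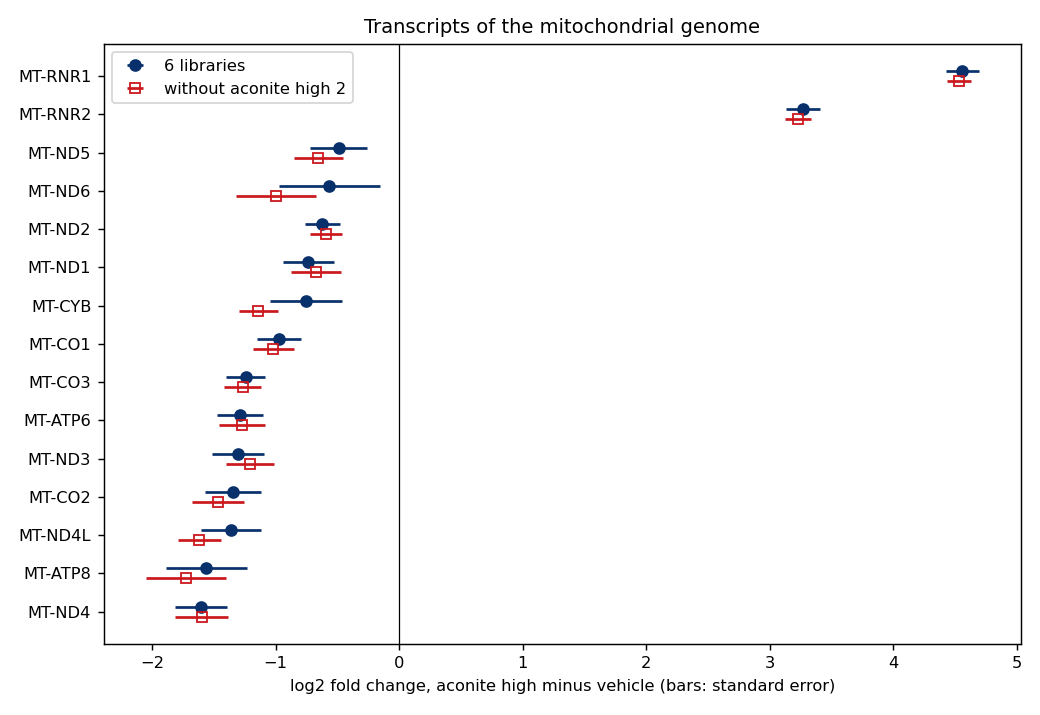
Log2 fold change of aconite high minus vehicle for the 15 mitochondrial transcripts, with standard errors, with all 6 libraries (circles) and without aconite high 2 (squares). The 2 ribosomal RNAs lie at 4.56 and 3.27, and all 13 messenger RNAs lie below 0 under both settings.

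The NRF2 targets were next in the number of rises with all 6 libraries. All 30 listed genes were tested, 11 rose and none fell, 25 rose without aconite high 2, and 1 to 4 rose when another library was left out. All 30 fold changes were above 0 with all 6 libraries (27 without aconite high 2), with a median of 0.58 (0.65). ALDH3A1, an aldehyde dehydrogenase that is also an AhR target, was at 23.5, 22.2 and 21.3 CPM in vehicle and 76.4, 83.8 and 76.6 CPM in aconite high (log2 difference 1.82 ± 0.09, adjusted p = 0.000311). AKR1B10, an aldo-keto reductase with close paralogs, was at 114, 104 and 107 CPM in vehicle and 217, 277 and 216 CPM in aconite high (log2 difference 1.12 ± 0.13, adjusted p = 0.0113). GCLC, the catalytic subunit of the first enzyme of glutathione synthesis, was at 76.7, 73.3 and 78.9 CPM and 128, 137 and 126 CPM (log2 difference 0.77 ± 0.09, adjusted p = 0.0125). ME1, the cytosolic malic enzyme that supplies NADPH and whose promoter is shown above, rose by 0.72 ± 0.09 (adjusted p = 0.0173). Each of these genes was separated from vehicle without overlap. The other rises were GCLM, the modifier subunit of the enzyme of GCLC, at 0.75, TXNRD1, thioredoxin reductase, at 0.72, SLC7A11 and HMOX1, TRIM16L at 0.78, and the aldo-keto reductases AKR1C1 and AKR1C2 at 1.36 and 1.41, near-identical genes whose reads may have been split between them.

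HMOX1, heme oxygenase 1, was at 9.94, 8.55 and 9.61 CPM in vehicle and 17.8, 23.1 and 19 CPM in aconite high (log2 difference 1.09 ± 0.13, adjusted p = 0.015). NQO1, the quinone reductase often used as a marker of NRF2 activity, was at 549, 492 and 512 CPM in vehicle and 798, 1266 and 814 CPM in aconite high. Every aconite library was above every vehicle library, but the difference of 0.88 ± 0.19 did not pass the test (adjusted p = 0.0899), with aconite high 2 well above the other two. Without that library it was 0.64 (adjusted p = 0.00138). In the heme and iron list 25 of 26 genes were tested, with 6 higher and 1 lower without aconite high 2. With all 6 libraries 2 rose, HMOX1 and ALAS1, the first enzyme of heme synthesis, which was at 45.1, 45.7 and 50.1 CPM in vehicle and 79.6, 92.6 and 84.7 CPM in aconite high (log2 difference 0.86 ± 0.10, adjusted p = 0.0126). Within code 6, 3 of the 30 genes were higher in aconite high than in bupleurum high (23 without aconite high 2), and 12 of 30 were higher than in aconite low (25 without it). AKR1B10, at 165, 169 and 182 CPM in bupleurum high, differed from it by 0.46 (adjusted p = 0.244).

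Among the genes that fell, SLC14A1, a urea transporter, held under every omission: it was at 9.03, 7.74 and 8.47 CPM in vehicle and 2.74, 2.62 and 2.99 CPM in aconite high (log2 difference -1.59 ± 0.13, adjusted p = 0.00298). BDNF, a neurotrophin, was at 3.44, 3.18 and 3.31 CPM in vehicle and 0.791, 0.947 and 1.14 CPM in aconite high. It had the largest fall among the genes the naming rule took (log2 difference -1.76 ± 0.20, adjusted p = 0.0117). ADH6, an alcohol dehydrogenase, was at 5.2, 5.15 and 5.62 CPM and 2.14, 2.04 and 1.91 CPM (log2 difference -1.40 ± 0.14, adjusted p = 0.00907). In these 3 genes the groups did not overlap, which the naming rule required. CTTNBP2, a protein that binds cortactin, and CD200, an immunoglobulin-like membrane protein, had differences of -1.36 ± 0.18 and -1.34 ± 0.14 (adjusted p = 0.0195 and 0.0096). FAM215B, a long noncoding RNA, fell against vehicle (log2 difference -1.32 ± 0.18, adjusted p = 0.0201) and did not pass the test within code 6, where it was at 3.77, 3.49 and 2.25 CPM in bupleurum high and 3.09, 3.09 and 2.45 CPM in aconite low.

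TXNIP, the arrestin that lowers glucose uptake and is induced by MondoA when glucose phosphates build up (chromosome 1, 145992435 to 145996600, minus strand), was at 56.9, 55.9 and 60.9 CPM in vehicle and 17.2, 29.4 and 20.7 CPM in aconite high (log2 difference -1.38 ± 0.19, adjusted p = 0.0201, and -1.61 without aconite high 2). It stood at 51.5, 51.3 and 58.7 CPM at the low and 37.2, 35.4 and 37.5 CPM at the medium dose. Its paralog ARRDC4, another MondoA target, was at 9.6, 10.6 and 10.6 CPM in vehicle and 5.44, 7.21 and 5.59 CPM in aconite high, without overlap, and missed the threshold (adjusted p = 0.0529, and 0.00145 without aconite high 2). Of the 11 genes of that list tested, TXNIP alone passed the test with all 6 libraries, and 3 were lower and 1 higher without aconite high 2. HT29 carries a mutant p53, so the p53 list is given here as a description of its genes only. In that list 23 of 24 genes were tested, with 2 higher and 3 lower without aconite high 2. With all 6 libraries 1 rose (SESN2) and 2 fell: BTG2, an antiproliferative gene, from 44, 40.2 and 41.3 CPM to 22.6, 18.6 and 20.8 CPM (log2 difference -1.02 ± 0.11, adjusted p = 0.0096), and SESN1, a sestrin (log2 difference -0.73 ± 0.12, adjusted p = 0.0376). CDKN1A, the p53 target p21, had a difference of 0.58 ± 0.10 (adjusted p = 0.0518), and of 0.61 without aconite high 2 (adjusted p = 0.00439).

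ATOH1, the factor that commits intestinal cells to the secretory lineage, was at 5.08, 4.09 and 4.89 CPM in vehicle and 1.53, 1.89 and 2.26 CPM in aconite high, without overlap (log2 difference -1.29 ± 0.20, adjusted p = 0.0292). It was the only one of 27 tested genes of the goblet cell and mucin list to pass the test with all 6 libraries. Without aconite high 2, 9 members were lower and 1 higher, and with any other library left out none was called. DLL4, a Notch ligand of secretory cells, and the membrane mucin MUC3A had differences of -1.27 ± 0.25 and -0.74 ± 0.14 (adjusted p = 0.0692 and 0.0584). MUC2, the main secreted mucin of goblet cells, was at 28.5, 35.9 and 37.6 CPM in vehicle and 32.3, 8.53 and 27.6 CPM in aconite high, so that aconite high 2 alone was far below vehicle. The list's median was -0.39 with and -0.23 without that library. In RNA from whole cultures, fewer cells of a type and less RNA per cell cannot be told apart. In the enterocyte list 23 genes were tested: CEACAM7, an adhesion molecule of mature colonocytes, rose by 1.84 ± 0.26 (adjusted p = 0.0217), SLC5A1, the sodium-glucose cotransporter, fell (log2 difference -0.79 ± 0.11, adjusted p = 0.0217), and no other member passed. Of that list, 6 of 25 tested members were higher and 2 lower without aconite high 2.

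Several lists gave few calls or none with all 6 libraries. By edgeR no member passed the test among 73 cytosolic ribosomal protein genes, 34 proteasome genes or 33 mitosis genes, and 0, 1 and 1 of them had an unadjusted p under 0.05. DESeq2 called none of these either, and limma with library quality weights called 15, 5 and 4. Of all 14902 genes tested, 1831 had an unadjusted p under 0.05 by edgeR, and DESeq2 and limma with weights called 525 and 4656. Among 40 DNA replication genes and 23 heat shock genes edgeR called none, with 5 and 3 at an unadjusted p under 0.05, DESeq2 called 1 in each list, and limma with weights 10 in each. With aconite high 2 left out, edgeR called 5 DNA replication genes and 2 heat shock genes higher and 3 ribosomal protein genes lower. It called none of the proteasome, mitosis or metallothionein and zinc lists. Of all genes tested without that library, 5.96% were higher and 5.11% lower. Among 10 metallothionein and zinc genes none was called by edgeR or DESeq2, 3 were lower at an unadjusted p under 0.05, and limma with weights called 3. In the ribosomal protein list the median was 0.556 in aconite high 2 and -0.268 and -0.157 in libraries 1 and 3, and it was 0.224 in vehicle 1, which also deviated downwards with exon length (rho -0.41). Of 29 genes of sodium channels, the sodium pump and sodium exchangers 11 reached the levels needed for testing and none passed with all 6 libraries by edgeR or DESeq2, with 2 higher at an unadjusted p under 0.05 and 4 higher and 1 lower by limma with weights. By edgeR 1 was called higher without aconite high 2. The nearest to the threshold by p were FXYD5 and FXYD3, regulators of the sodium pump, at differences of 0.28 ± 0.10 and 0.39 ± 0.16 (adjusted p = 0.302 and 0.385). SCN8A was the only voltage-gated sodium channel subunit tested and had a log2 difference of 0.10.

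The comparisons within code 6 share the aconite high libraries with the comparison above. Against bupleurum high 79 genes were higher and 38 lower of 15240 tested, 0.768% of them (973 and 794 of 15535, or 11.4%, without aconite high 2). Against aconite low 68 were higher and 51 lower of 14967, 0.795% (684 and 564 of 15428, or 8.09%, without it). Of the 110 higher and 75 lower genes against vehicle, 51 and 23 were called in the same direction in both comparisons within code 6. The same sign was held by 109 and 72 of them against bupleurum high and by 109 and 71 against aconite low. Because the aconite high libraries are shared, such agreement is favoured in advance. The share of same signs over all genes was not computed. Without aconite high 2, 440 of 907 higher and 267 of 777 lower genes were called in all 3 comparisons. CYP1A1, MT-RNR1, CCL20, CXCL1 and MT-RNR2 were the 5 largest named rises against bupleurum high, and TXNIP, MT-ND4, ATOH1, MT-CO3 and MT-ATP6 the 5 largest falls. TXNIP was at 63, 64.5 and 68.1 CPM in bupleurum high, and the difference was -1.55 (adjusted p = 0.0246). Against aconite low the largest named rises were MT-RNR1, CYP1A1, MT-RNR2, SLC6A9 and CHAC1, and the largest falls SLC3A1, CTTNBP2, TXNIP, ADH6 and SLC14A1. SLC6A9 was at 0.603, 0.654 and 0.462 CPM in aconite low and differed by 2.90 (adjusted p = 0.0243). RN7SL2, which rose by 4.13 ± 0.61 against vehicle (adjusted p = 0.0258), differed by 1.13 from bupleurum high and 0.44 from aconite low (adjusted p = 0.586 and 0.789). Leaving out a library other than aconite high 2 left 10 to 26 higher and 0 to 6 lower genes against bupleurum high, and 5 to 12 higher and 0 or 1 lower against aconite low.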

How the data were processed

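RNA of HT29 cells was sequenced as 100 bp paired-end reads. Per the submitters' processing notes the authors used RSEM 1.3.3 and STAR 2.7.3a with GRCh38/hg38 after Trim Galore 0.6.5 and FastQC 0.11.9, and deposited expected counts per gene (estimated counts, 8.68% of values not whole). Not given in the sources used here were the annotation version and the strand setting of the counting. The table held 60675 genes and 270 sample columns, of which 60 matched samples and 210 were not used.

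Counts were rounded to whole numbers and fitted with edgeR 4.0.16 (limma 3.58.1, R 4.3.3): filterByExpr by group, TMM scaling, glmQLFit and glmQLFTest on the 6 libraries of each comparison, with Benjamini-Hochberg adjustment over all genes tested. A gene was called at an adjusted p under 0.05. Log2 fold changes are given with standard errors, 3 against 3 libraries unless a library is left out. CPM are scaled by TMM over the 57 libraries of the 19 groups with 3 replicates, and medians of lists by library use log2(CPM + 0.1). Scripts were tested on simulated counts. Coordinates are those of GENCODE 29 (GRCh38).

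The comparison and the 39 gene lists were chosen with earlier results of these data known. Named genes were the 12 largest rises and 12 largest falls that passed the test, had a mean log2 CPM of at least 1, did not overlap between groups and kept their sign without aconite high 2, up to 4 members of each list with the smallest p, and the 5 largest rises and falls of each other comparison. CYP1A1, CYP1B1, HMOX1, NQO1 and the cell markers were always named. One cell marker is not reported here. AHRR, NFKBIA, RELA, RELB, NFKB1, NFKB2, ATF4, DDIT3, MT-ND6, MUC2, SCN8A and the remaining called members of the lists were added after their values were seen. Alternatives were other scaling, no filter, DESeq2 1.42.0, limma with quality weights, one fit over all groups, a replicate block and leaving out each library, and, chosen after seeing the data, one fit over all groups without aconite high 2.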

Additional observations from a re-analysis of the deposited data

How the results depend on the processing

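No named gene that passed the test changed direction under any alternative tried. For the largest rises and falls the naming rule itself required the same sign without aconite high 2. All alternatives reuse the same aconite high libraries, which favours an unchanged direction. The list medians of ribosomal proteins, proteasome, nuclear respiratory chain and mitochondrial ribosome turned from 0.09, 0.12, 0.05 and 0.09 with all 6 libraries to -0.21, -0.10, -0.23 and -0.12 without aconite high 2. Higher and lower genes against vehicle numbered 276 and 249 with DESeq2, 1414 and 1201 with all groups in one fit, 1409 and 1472 in that fit without aconite high 2, and 2246 and 2410 with limma quality weights, where aconite high 2 had a weight of 0.0819. Against bupleurum high the same 4 alternatives gave 216 and 144, 974 and 651, 538 and 410, and 959 and 761. Against aconite low they gave 191 and 185, 957 and 830, 644 and 623, and 780 and 819. Without the filter on low counts 163 were higher and 119 lower against vehicle. DESeq2 size factors and upper quartile scaling moved no count by 1.5 times. Leaving out one library in turn gave 15 to 907 higher and 4 to 777 lower genes against vehicle, 10 to 973 and 0 to 794 against bupleurum high, and 5 to 684 and 0 to 564 against aconite low, the highest of each without aconite high 2. At an unadjusted p under 0.05, edgeR gave 1831 genes against vehicle with all 6 libraries. The cause of these moves was not tested.

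Of the 24 largest rises and falls against vehicle, all 24 kept their call under DESeq2, both other scalings, no filter, one fit over all groups, limma weights and leaving out aconite high 2, 23 in the fit over all groups without aconite high 2, and 11 with the replicate block. Without vehicle 1, 2 or 3 they numbered 8, 8 and 9, and without aconite high 1 or 3 20 and 15. With the replicate number as a block 19 genes were higher and 5 lower against vehicle, 16 and 0 against bupleurum high, and 5 and 0 against aconite low. The numbers do not pair the libraries: same-numbered libraries of aconite high and vehicle had correlations of deviations of -0.29, -0.22 and 0.17, and not every library correlated best with its own number. Depth limits genes of few counts, such as SCN8A and C3.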

Other observations

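EREG, the EGF receptor ligand epiregulin, was at 77.8, 79.6 and 87.9 CPM in vehicle, 118, 94.2 and 94.2 at the low, 152, 154 and 147 at the medium and 188, 161 and 179 at the high dose of aconite (high minus vehicle 1.10 ± 0.10 on the log2 scale, adjusted p = 0.00556). DUSP5, a phosphatase that inactivates ERK in the nucleus, was at 4.12, 4.68 and 3.94 CPM in vehicle and 8.04, 8.6 and 8.61 at the high dose (0.97 ± 0.12, adjusted p = 0.017). Both passed the test, alone among 22 tested genes of the MAPK feedback list with all 6 libraries, and 6 were higher and 2 lower without aconite high 2. AREG, amphiregulin, did not pass it with all 6 libraries (0.89 ± 0.18, adjusted p = 0.0776, with aconite high 2 at the top of its group) and did without that library (0.69, adjusted p = 0.00597). VEGFA, the angiogenic factor, was at 65, 72.9 and 67.1 CPM in vehicle and 133, 101 and 127 in aconite high (0.81 ± 0.13, adjusted p = 0.0319) and was the single call among 33 tested genes of hypoxia and glycolysis with all 6 libraries, where 8 were higher without aconite high 2. CYP4F12, a fatty acid hydroxylase, was the only call among 28 tested genes of drug metabolism and efflux with all 6 libraries, where 11 were higher without aconite high 2 (0.85 ± 0.14, adjusted p = 0.04), and within code 6 it did not pass (0.27 from bupleurum high and 0.31 from aconite low, adjusted p = 0.55 and 0.468).

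Of 34 interferon-stimulated genes tested, none was called against vehicle with all 6 libraries by edgeR or DESeq2 (8 were lower at an unadjusted p under 0.05, and 10 lower and 1 higher by limma with library quality weights) and 4 were lower without aconite high 2, while 1 was lower against aconite low with all libraries and 20 without aconite high 2. Whether the 2 comparisons differ was not tested. MX1, an antiviral GTPase, was at 10.6, 8.55 and 9.29 CPM in vehicle, 10.9, 17.9 and 13 at the low, 8.78, 11.3 and 19.5 at the medium and 6.37, 8.31 and 5.78 at the high dose. The medium dose libraries ranged more widely than the high dose libraries. Genes of cholesterol synthesis gave no call among 26 tested with all 6 libraries by edgeR (4 lower at an unadjusted p under 0.05, 1 lower by DESeq2 and 17 by limma with weights) and 9 lower without aconite high 2. INSIG1, the sterol sensor that holds back SREBP2, was at 179, 180.3 and 179 CPM in vehicle and 149.6, 150.4 and 133 in aconite high (-0.32 ± 0.09, adjusted p = 0.194, and 0.0158 without aconite high 2). Of 23 immediate early genes tested, 1 rose with all 6 libraries (ATF3), and 12 of 24 rose and 1 fell without aconite high 2, FOSB among them (log2 difference 0.95, adjusted p = 0.00422). Of 14 replication histone genes and 20 Wnt and stem cell genes tested, edgeR called none with all 6 libraries, 5 and 7 were lower at an unadjusted p under 0.05, and DESeq2 called 2 and 4 lower. Without aconite high 2 edgeR called 3 and 5 lower, and 0 and 1 higher. Of all 14902 genes tested with all 6 libraries, 1831 had an unadjusted p under 0.05 by edgeR. DESeq2 called 276 of them higher and 249 lower, and limma with weights 2246 and 2410. By edgeR without aconite high 2, 5.96% of all genes tested were higher and 5.11% lower.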
